A study of Rattus norvegicus with 8 samples.

Results

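The genes described here are the angiopoietins Angpt1 and Angpt2, the angiopoietin-like genes Angptl1, Angptl2, Angptl4 and Angptl7, and Chi3l1, in the thoracic aorta of rats made tolerant to nitroglycerin. They were chosen by gene symbol, with their group values from these libraries already known, so those values are a description and carry no test. Of the 7 symbols, 6 had a row among the 27742 rows of the gene table, each with a single row. Angptl7 had none. The row LOC102552055, described in the table as an angiopoietin-related protein 7-like gene, carries the RefSeq gene number of Angptl7 and is shown beside the others without being counted.

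The rats were male wild-type Sprague Dawley animals, labelled 12 weeks old and 180 to 200 g. The nitroglycerin group (GTN, glyceryl trinitrate) was injected subcutaneously with 100 mg/kg, 3 injections daily over 3 days, and the control group with the ethanol vehicle. Each group has 4 libraries of ribosomal-RNA-depleted total RNA, with values in FPKM (fragments per kilobase of transcript in a library scaled to a fixed total). The labels give the tissue as thoracic aorta, but their wording on RNA extraction names adipose. Nothing in the labels ties a library to its own rat, so any p-value measures the spread between these libraries, which may be technical.

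Angiopoietins are secreted ligands of the endothelial receptor tyrosine kinase Tie2, the product of Tek. Angpt1 is made by mural and stromal cells and keeps the endothelium quiescent, whereas Angpt2 is stored and released by endothelial cells and can oppose Angpt1. Angiopoietin-like proteins share the coiled-coil and fibrinogen-like layout but do not bind Tie2. Angptl2 acts through integrins in inflamed tissue, and Angptl4 inhibits lipoprotein lipase in fat, muscle and the vessel wall. Chi3l1 encodes a secreted chitinase-like lectin without enzyme activity, made by macrophages, smooth muscle cells and other stromal cells.

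Aligned sequence, taken from the ratio of coverage to FPKM, spanned 7.48 to 8.86 Gb among controls and 6.77 to 8.39 Gb among treated libraries. Most genes read higher with nitroglycerin. The median difference over the 12977 rows tested (at least 1 FPKM in at least 4 libraries) was 0.30 on log2(FPKM + 1), and 0.01 after each library was divided by its median-of-ratios factor. Member values are therefore given under both scalings. Smooth muscle markers, which define the labelled tissue, were abundant: the 5 measured genes of that list summed to 1999 to 2671 FPKM in controls and 1245 to 2615 FPKM with nitroglycerin. Most of that sum was Acta2, at 1762 to 2401 FPKM in controls and 1061 to 2359 FPKM with nitroglycerin. The scarcest of the list, Lmod1, averaged 10.4 and 19.1 FPKM.

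Chi3l1 stood 3.53-fold higher with nitroglycerin, the largest ratio of group means among these genes. The control libraries read 1.40, 1.86, 1.13 and 0.935 FPKM, and the nitroglycerin libraries 4.05, 4.64, 5.66 and 4.45 FPKM. Every nitroglycerin library lay above every control, and the lowest of them was still above the highest control by more than the controls spanned. The means were 1.33 ± 0.402 and 4.70 ± 0.687 FPKM (SD, n = 4 per group). The log2 difference was 1.297 (SE 0.15), which was 1.00 above the median gene. After rescaling, the libraries spanned 1.03 to 1.89 FPKM in controls and 3.50 to 4.77 FPKM with nitroglycerin, a 2.70-fold ratio. The row joins an annotated transcript with an assembled transcript of the same locus, so the value does not separate them. Estimated read coverage of Chi3l1, from FPKM and depth, was 6.998 to 47.5 bases of sequence per transcript base.

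Angptl2 was the most abundant of these genes in every library and stood 1.84-fold higher with nitroglycerin. It read 9.65, 10.02, 8.68 and 8.90 FPKM in the controls and 17.5, 15.9, 16.6 and 18.4 FPKM in the nitroglycerin libraries. The groups did not overlap, and the spread within each was narrow (9.31 ± 0.627 and 17.1 ± 1.09 FPKM, SD, n = 4). The log2 difference was 0.81 (SE 0.06), of which 0.52 lay above the median gene. After rescaling the ranges still lay apart, at 9.55 to 13.01 and 13.96 to 15.1 FPKM, but the ratio was 1.39. Angptl2 had the deepest coverage of the set, 66.6 to 139 per base.

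The promoters of Chi3l1 and Angptl2 are shown because these are the genes whose groups lay apart, and that of Angptl4 because its regulation by hypoxia and nuclear receptors is well known. RefSeq (build GRCr8) had promoters for 4 of the genes, Angptl1 being the fourth. Each runs from 250 bases before to 50 after the start site, 5′ to 3′ on the gene's strand. Capitals mark matches on either strand to any of 8 short motifs. The core promoter motifs searched were the TATA box, TATAAA. With it went the CCAAT box, spelled CCAAT, and the GC box, which reads GGGCGG. The response motifs were the AP-1 site, with letters TGANTCA, and the E-box, with letters CACGTG. The hypoxia response core, ACGTG, also lies within the E-box. The nuclear receptor half-site was AGGTCA, and the STAT site was searched as TTCNNNGAA.
Chi3l1, chr13:48193589-48193888, plus strand: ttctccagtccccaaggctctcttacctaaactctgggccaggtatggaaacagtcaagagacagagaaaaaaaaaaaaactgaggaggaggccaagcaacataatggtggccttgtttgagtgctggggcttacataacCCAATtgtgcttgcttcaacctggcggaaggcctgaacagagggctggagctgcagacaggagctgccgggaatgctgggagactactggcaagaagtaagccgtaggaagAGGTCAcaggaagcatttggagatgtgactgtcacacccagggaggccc
Angptl2, chr3:36914626-36914925, plus strand: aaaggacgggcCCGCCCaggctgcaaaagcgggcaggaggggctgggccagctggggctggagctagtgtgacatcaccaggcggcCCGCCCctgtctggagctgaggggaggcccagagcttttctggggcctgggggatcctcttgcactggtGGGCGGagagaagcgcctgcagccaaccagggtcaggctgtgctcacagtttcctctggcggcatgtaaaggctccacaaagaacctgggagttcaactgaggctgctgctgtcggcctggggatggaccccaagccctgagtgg
Angptl4, chr7:15258632-15258931, minus strand: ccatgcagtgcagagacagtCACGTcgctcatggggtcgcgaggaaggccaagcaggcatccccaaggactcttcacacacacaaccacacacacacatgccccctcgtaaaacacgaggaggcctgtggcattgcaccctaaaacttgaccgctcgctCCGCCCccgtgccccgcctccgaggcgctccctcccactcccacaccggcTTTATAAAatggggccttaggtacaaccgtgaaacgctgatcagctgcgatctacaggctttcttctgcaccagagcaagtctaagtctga

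The 3 promoters differ in layout. Chi3l1 held 1 CCAAT box at -110 to -106 and 1 nuclear receptor half-site at 2 to 7, with no TATAAA and no GC box in this window. Angptl2 held 3 GC boxes, starting at -239, -164 and -95, and had the highest GC content (65.3% against 52.3% in Chi3l1). Angptl4 had no nuclear receptor half-site in this window. It had overlapping TATAAA matches on both strands between -41 and -34, a GC box at -91 to -86 and a hypoxia response core at -230 to -226. These letters are common: over 33469 rat promoters of the same length, 37.5% held a CCAAT box, 33.1% a GC box, 19.25% the hypoxia core, 16.2% the half-site and 14.2% a TATA box. A match is not a bound site. The AP-1 letters (in 7.33% of promoters) and the E-box letters (in 6.42%) were in none of the 4 promoters, and the STAT letters (in 8.87%) were in that of Angptl1 alone.

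**Figure D1:**
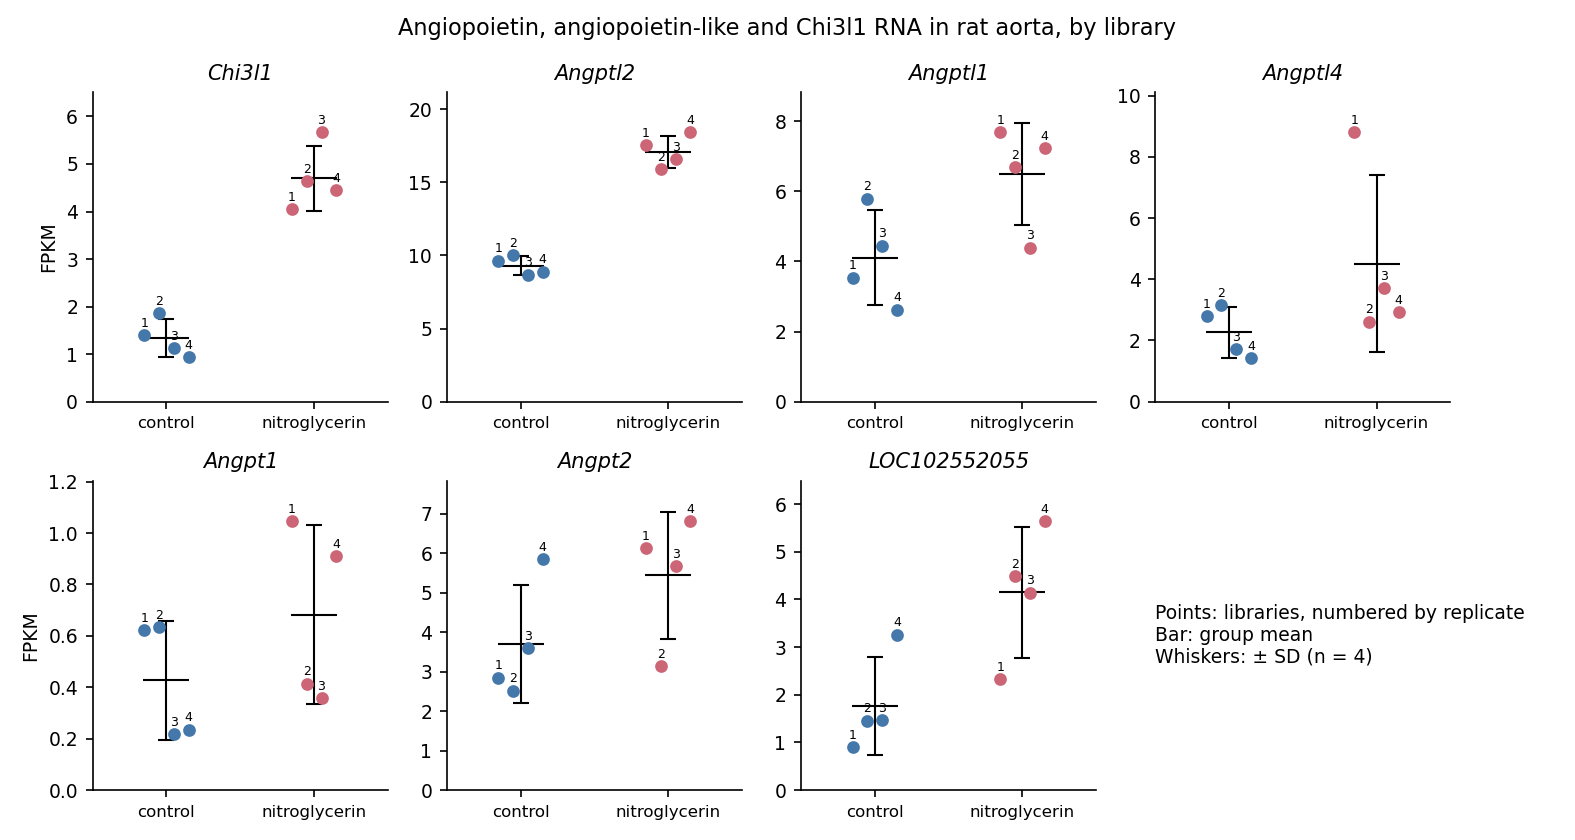
FPKM of each gene (vertical axis, own scale per panel) in the control and nitroglycerin groups, 1 point per library numbered by replicate, with the group mean and SD (n = 4). The groups lie apart for Chi3l1 and Angptl2 and overlap for the other 5 genes. Replicate 1 of the nitroglycerin group stands at 8.80 FPKM for Angptl4.

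Angptl4 had nearly the same ratio of means as Angptl2, 1.98-fold, but here 1 library set it. The controls read 2.79, 3.15, 1.72 and 1.42 FPKM, and the nitroglycerin libraries 8.80, 2.61, 3.70 and 2.92 FPKM. Replicate 1 of the nitroglycerin group was far above the rest, and 2 of the other 3 lay within the control range. The means were 2.27 ± 0.833 and 4.51 ± 2.90 FPKM (SD, n = 4), with a log2 difference of 0.66 (SE 0.38). Without that replicate the nitroglycerin mean was 3.08 ± 0.560 FPKM (SD, n = 3), a ratio of 1.35 and a log2 difference of 0.34.

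The same library held more adipocyte RNA markers than any other. The 10 adipocyte markers were all measured and summed to 166 FPKM in it, against 25.9 to 33.8 FPKM in the other nitroglycerin libraries and 13.003 to 34.2 FPKM in controls. Adiponectin (Adipoq) read 15.01 FPKM there and 0.096 to 1.80 FPKM in the other 7 libraries. With the adipocyte score (the mean log2 value of these markers) as a covariate, the Angptl4 difference was 0.19 and that of Angpt1 0.04. After group means were removed, Angptl4 followed that score with r = 0.916 over the 8 libraries, and with r = 0.670 over 7 without that replicate. Over 8 libraries its r was 0.944 with the Schwann cell score, 0.939 with the neutrophil score and 0.857 with the endothelial score. No gene of the Schwann cell and neutrophil lists passed the filter. Nitroglycerin replicate 1 scored highest on both (0.633 and 0.359 log2), and their r without it was not computed. Without that replicate the endothelial and fibroblast scores gave 0.8265 and 0.8255, above the adipocyte score. These values share libraries and are given as a description. The part of any of these cell types in the Angptl4 value was not tested, and fewer cells of a type cannot be told apart from less RNA per cell in these bulk samples.

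**Figure D2:**
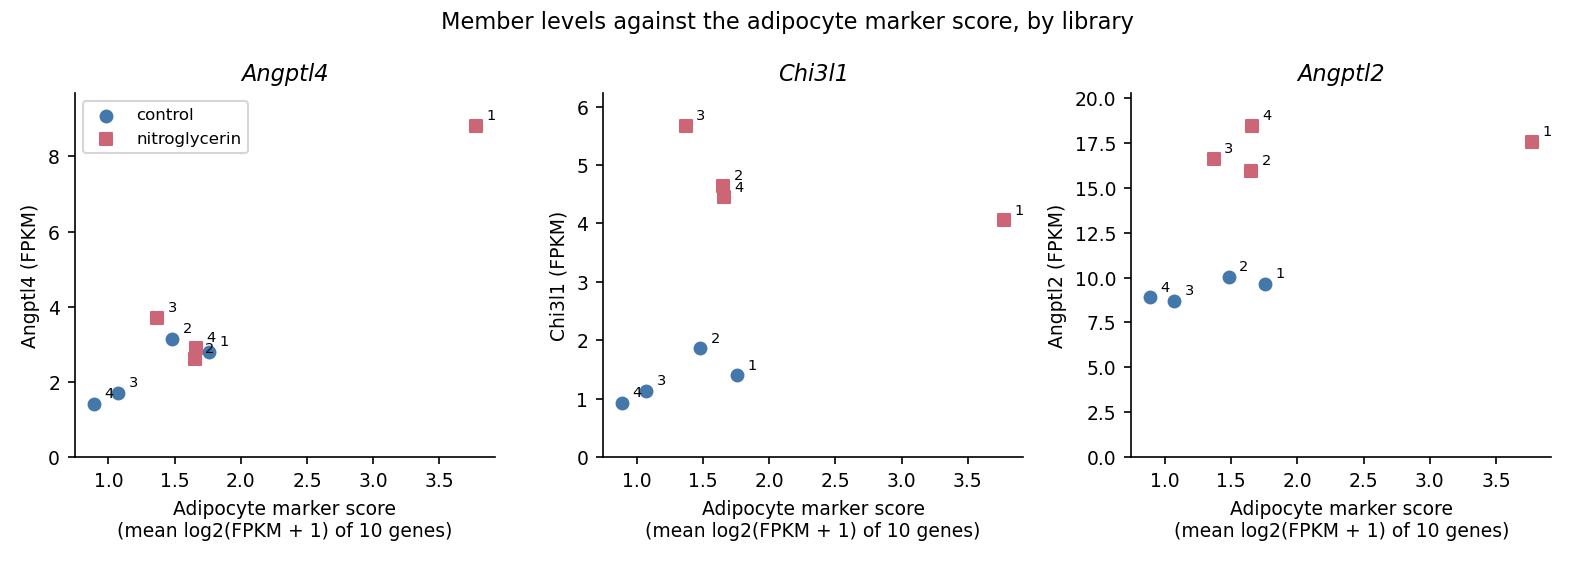
Level of Angptl4, Chi3l1 and Angptl2 (FPKM, vertical axes) against the adipocyte marker score (mean log2(FPKM + 1) of 10 genes, horizontal axes), 1 point per library, numbered by replicate. Replicate 1 of the nitroglycerin group, at a score of 3.77, has the highest Angptl4 value but the lowest Chi3l1 value of its group.

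Chi3l1 and Angptl2 were not highest in that replicate. In the library rich in adipocyte markers Chi3l1 was lowest of its group (4.05 FPKM) and Angptl2 was second highest (17.5 FPKM). Without it the ratios were 3.69 and 1.82. Their r with the adipocyte score was -0.197 and 0.386 over 8 libraries, and 0.474 and 0.612 over the 7 without it. Macrophage markers scored 2.72 ± 0.235 log2 in controls and 3.19 ± 0.152 log2 with nitroglycerin (SD, n = 4). That difference of 0.47 had a two-sided exact permutation p of 0.0286, the smallest that 4 against 4 allows, and 0.157 after Benjamini-Hochberg adjustment over 11 marker lists. The skeletal muscle fibre list had the same p in this test, before and after adjustment, with a difference of -0.349. The 7 measured macrophage genes summed to 43.0 to 107 FPKM in controls and 63.2 to 108 FPKM with nitroglycerin, and all 7 passed the filter. Fibroblast markers scored 4.79 ± 0.400 and 5.21 ± 0.141 log2 (SD, n = 4, exact permutation p = 0.143, adjusted p = 0.314). The 6 measured fibroblast genes summed to 212 to 480 and 287 to 371 FPKM. Both scores are as deposited, where the median tested gene was itself 0.30 higher with nitroglycerin. After median-of-ratios rescaling the log2 differences of the macrophage genes ran from -0.67 (Lyz2) to 0.75 (C1qb). Those of the fibroblast genes ran from -0.52 (Lum) to 0.42 (Dcn). Within groups, over 8 libraries, Chi3l1 had r = 0.753 with the fibroblast score, 0.642 with the pericyte score and 0.04 with the macrophage score. Without nitroglycerin replicate 1 its r was 0.869 with the fibroblast score, 0.849 with the endothelial score and 0.06 with the macrophage score. The part of these cell types in the Chi3l1 and Angptl2 values was not tested. Of 4 neutrophil markers 3 had a mean under 0.1 FPKM, and the list summed to 0.0387 to 0.258 FPKM in controls and 0.107 to 1.205 FPKM with nitroglycerin, highest in replicate 1. The 6 genes of cartilage and tendon, tissues in which Chi3l1 is known, summed to 2.59 to 3.78 FPKM in controls and 1.05 to 5.66 FPKM with nitroglycerin. Of these the tendon factor gene Scx passed the filter (0.451 to 4.62 FPKM), Comp read 0.407 to 1.54 FPKM, and the collagen gene Col2a1 was listed at 0 in 7 libraries.

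Angptl1, an angiopoietin-like gene of stromal cells, stood at 3.53, 5.79, 4.44 and 2.62 FPKM in controls and 7.68, 6.68, 4.39 and 7.23 FPKM with nitroglycerin. In 3 of 4 nitroglycerin libraries it exceeded every control, and in replicate 3 it lay inside their range. The means were 4.10 ± 1.35 and 6.50 ± 1.46 FPKM (SD, n = 4), a log2 difference of 0.57 (SE 0.25), and 0.25 (SE 0.24) after rescaling. Its row joins 5 transcripts, so a change in their mix would also alter the value. The row LOC102552055, which corresponds to Angptl7, a gene known from cornea and connective tissue, read 0.898, 1.46, 1.47 and 3.26 FPKM in controls and 2.33, 4.50, 4.14 and 5.65 FPKM with nitroglycerin. The highest control exceeded the lowest nitroglycerin library, so the groups overlapped. Its log2 difference was 0.92 (SE 0.32), and 0.65 (SE 0.31) after rescaling. Within groups it ran opposite to Angptl4 (r = -0.813), being lowest in the nitroglycerin library where Angptl4 was highest.

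The Tie2 ligands showed no separation of the groups. Angpt2 read 2.85, 2.52, 3.59 and 5.85 FPKM in controls and 6.13, 3.14, 5.66 and 6.81 FPKM with nitroglycerin. Replicate 4 of the controls lay among the nitroglycerin values and replicate 2 of the nitroglycerin group among the controls. Its log2 difference was 0.46 (SE 0.30), and 0.15 (SE 0.28) after rescaling. Angpt1 was the scarcest, at 0.622, 0.635, 0.218 and 0.236 FPKM in controls and 1.05, 0.415, 0.358 and 0.910 FPKM with nitroglycerin. Its coverage was 1.76 to 8.33 per base, and it was the only one of the 6 under the filter on low values. Within each group Angpt1 split into a higher and a lower pair of libraries, and the lower nitroglycerin pair lay between the control pairs. The Angpt1 log2 difference was 0.23 (SE 0.19) as deposited, beside a median gene at 0.30, and 0.09 (SE 0.19) after rescaling, beside a median gene at 0.01. Angpt2 exceeded Angpt1 in all 8 libraries. The ratio of their FPKM was 4.58, 3.96, 16.4 and 24.8 in controls and 5.85, 7.56, 15.8 and 7.49 with nitroglycerin, so the range of the nitroglycerin group lay within that of the controls.

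The order of the levels can be compared on FPKM, which is per length. In controls it ran from Angptl2 (9.31 FPKM) through Angptl1 (4.10), Angpt2 (3.70), Angptl4 (2.27), LOC102552055 (1.77) and Chi3l1 (1.33) to Angpt1 (0.428). Only the first and last steps separated neighbours whose ranges lay apart. With nitroglycerin the order was Angptl2 (17.1), Angptl1 (6.50), Angpt2 (5.43), Chi3l1 (4.70), Angptl4 (4.51), LOC102552055 (4.15) and Angpt1 (0.683). Chi3l1 stood 2 places higher than in controls. Again only Angptl2 and Angpt1 lay apart from their neighbours, so the order of neighbours among the 5 genes between them is not settled by these libraries. In controls Chi3l1 (0.935 to 1.86 FPKM) still lay wholly below Angptl1 (2.62 to 5.79 FPKM) and Angpt2 (2.52 to 5.85 FPKM).

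In a fit across all tested rows (limma on log2(FPKM + 1), Benjamini-Hochberg adjusted p under 0.05), 2 of the 5 members tested were called, Chi3l1 and Angptl2, both higher. The background share called higher was 1.29% of 12977 rows and that called lower 0.0616%, and since this contrast was known when the genes were chosen nothing is read from the count. The groups did not overlap for the same 2 genes under either scaling, where 24.2% of tested rows were higher without overlap as deposited and 3.78% after rescaling, and 0.478% were lower without overlap as deposited. After rescaling limma called 0 of the 5 members (2 at an unadjusted p under 0.05), beside a background of 0.0308% called higher. Counts also moved with single libraries. None was called without control replicate 1, 3 or 4 or nitroglycerin replicate 3 or 4 (2 to 3 at an unadjusted p under 0.05 by limma), and Chi3l1 alone without nitroglycerin replicate 1. Over 16 alternative settings the log2 difference stayed between 1.01 and 1.78 for Chi3l1 and between 0.45 and 0.87 for Angptl2.

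**Figure D3:**
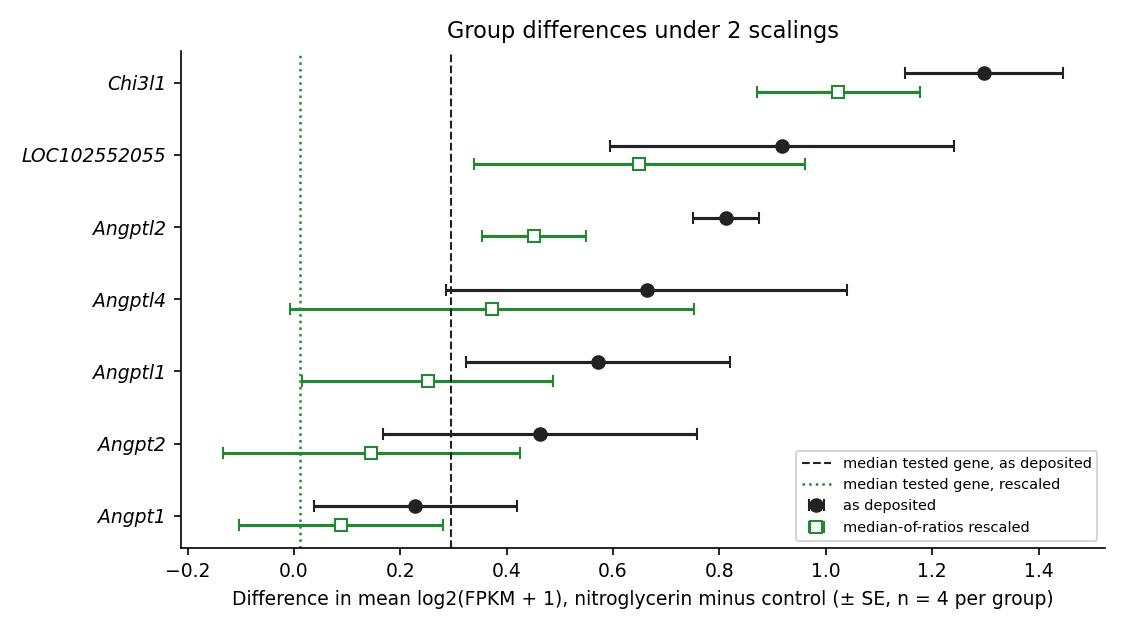
Difference in mean log2(FPKM + 1), nitroglycerin minus control (horizontal axis, ± SE, n = 4 per group), for each gene as deposited (filled) and after median-of-ratios rescaling (open). Vertical lines mark the median of all tested genes at 0.30 and 0.01. Chi3l1 stands farthest to the right under both scalings, and the deposited value of Angpt1 lies left of the deposited median, while its rescaled value lies right of the rescaled one.

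Receptors, partners and inputs of these ligands were read from 10 lists of 104 genes, of which 91 had a row and 70 passed the filter. By the same limma fit 1 of the 70 rose and none fell, a share near the 1.29% of all tested rows called higher, and after rescaling none was called (13 at an unadjusted p under 0.05). The median log2 difference of the 70 was 0.35, beside 0.30 for all tested genes. As deposited, groups lay apart for 14 of the 70, all higher with nitroglycerin, beside the 24.2% of all rows given above. After rescaling they lay apart in both directions. Osmr, Il6st, Tek, Sel1l and Lmf1 were higher, beside 3.78% of all rows, and Itga5, Itgb1 and Car9 were lower. The share of all rows lower without overlap was not counted after rescaling, so nothing is read from the lower genes.

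The gene that rose was Osmr, a receptor chain of the IL-6 family cytokine oncostatin M, in the list of IL-6 and NF-kB genes, inputs known to act on Chi3l1. It read 1.67, 2.16, 1.64 and 1.51 FPKM in controls and 4.00, 3.60, 4.63 and 3.12 FPKM with nitroglycerin, with every treated library above every control. Its log2 difference was 0.81 (SE 0.13, limma adjusted p = 0.0442), and 0.54 after rescaling (limma adjusted p = 0.148). Over 15 alternatives the limma adjusted p ran from 0.0359 to 0.191, and Osmr stayed called in 3 of them. It was not called with a pseudocount of 0.1, no filter, either rescaling, the replicate block or the adipocyte covariate. The call was lost without control replicate 1, 3 or 4 and without nitroglycerin replicate 1, 3 or 4, with adjusted p of 0.0825 to 0.122 in limma.

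Other genes of this list, picked after their values were seen, did not pass or were not tested. Socs3, a feedback inhibitor of the same cytokine receptors, read 0.480, 2.35, 0.318 and 0.714 FPKM in controls and 7.19, 2.71, 7.18 and 2.27 FPKM with nitroglycerin. The nitroglycerin libraries formed a high and a low pair, and control replicate 2 lay among the low pair (limma adjusted p = 0.0615). The shared receptor chain Il6st stood at 23.5 ± 2.40 and 36.3 ± 3.24 FPKM (SD, n = 4, limma adjusted p = 0.0558). Il6 itself was under the filter, at no more than 0.0303 FPKM in controls and at 0.627, 0.0346, 0.182 and 0.0427 FPKM with nitroglycerin. Its highest value came from the library with the most adipocyte markers.

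None of the 7 tested genes of the Tie receptor axis passed. All 7 differences were above 0 as deposited and 4 after rescaling, beside 86.6% of all tested rows as deposited and 6796 of 12977 after rescaling. The phosphatase gene Ptprb, whose product restrains Tie2, stood at 7.10 ± 1.76 and 11.6 ± 2.12 FPKM (SD, n = 4), and the transcription factor gene Foxo1, which Tie2 signalling holds back, at 7.68 ± 2.04 and 9.86 ± 3.59 FPKM. Tek, the Tie2 receptor gene, picked after its values were seen, read 4.11, 6.35, 4.12 and 3.44 FPKM in controls and 8.51, 7.54, 8.09 and 8.76 FPKM with nitroglycerin. The Tek groups lay apart, but the difference of 0.77 did not pass (limma adjusted p = 0.0535, and 0.260 after rescaling). Endothelial markers, which include Tie1, scored 2.26 ± 0.217 and 2.65 ± 0.203 log2 (SD, n = 4, exact permutation p = 0.0571, adjusted p = 0.210), with the 7 measured genes summing to 25.4 to 50.6 and 44.4 to 56.3 FPKM. That score is as deposited, where the median tested gene was itself 0.30 higher. After rescaling the log2 differences of these endothelial genes ran from -0.29 (Vwf) to 0.57 (Esam). The part of endothelial cells in the Tek values was not tested.

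Among integrins and other proposed angiopoietin-like receptors none of 9 tested genes passed. The integrin chains Itgb1 and Itgav stood at 140 ± 11.2 and 141 ± 16.3, and at 23.7 ± 5.43 and 25.3 ± 1.91 FPKM (SD, n = 4), with differences of 0.00 and 0.12 as deposited and -0.38 and -0.25 after rescaling. Of 7 tested genes around lipoprotein lipase, the enzyme that Angptl4 inhibits, none passed. Lmf2, a gene of the lipase maturation factor family, stood at 10.1 ± 1.39 and 13.1 ± 2.26 FPKM. The protease gene Furin, whose product cleaves Angptl4, stood at 15.8 ± 3.07 and 12.8 ± 2.26 FPKM. Lipoprotein lipase itself (Lpl, picked after its values were seen) read 18.9 FPKM in nitroglycerin replicate 1 and 1.73 to 5.66 FPKM elsewhere, the same library in which Angptl4 was highest.

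Of the PPAR targets, a set that Angptl4 belongs to in fat and muscle, 9 were tested and none passed. The fatty acid oxidation gene Hadha stood at 14.8 ± 1.79 and 17.9 ± 3.44 FPKM. None of 11 tested hypoxia targets passed, with the glycolytic gene Ldha at 18.0 ± 2.40 and 29.1 ± 3.64 FPKM and the stress-response gene Ndrg1 at 35.7 ± 3.98 and 58.1 ± 15.5 FPKM. None of 6 tested VEGF-axis genes passed. There the ligand gene Pgf read 3.87 ± 3.33 and 5.48 ± 3.80 FPKM and the co-receptor gene Nrp1 3.15 ± 0.935 and 5.04 ± 1.25 FPKM.

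Partners of the Chi3l1 protein gave no call among 5 tested genes. Its receptor subunit gene Tmem219 stood at 5.59 ± 0.589 and 6.55 ± 0.573 FPKM, and the lectin gene Lgals3 at 7.93 ± 3.15 and 8.67 ± 2.52 FPKM. The other receptor subunit gene, Il13ra2, was under the filter. The median difference of this list was 0.16 as deposited and -0.13 after rescaling, when 1 of 5 was above 0. Other chitinase-family genes were few: of 3 with a row, Chid1 and the lysosomal gene Ctbs were tested without a call, at 1.01 ± 0.195 and 1.40 ± 0.209, and at 3.74 ± 0.745 and 5.43 ± 0.506 FPKM. The macrophage chitinase Chit1 stayed at 0.143 FPKM or less in every library.

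Other angiopoietin-family genes were scarce. Angpt4 read 0.271 to 0.791 FPKM in controls and 0.510 to 1.36 FPKM with nitroglycerin. Angptl6 and Angptl8, known mainly from liver and fat, stayed at 0.804 FPKM or less in every library. All 3 were under the filter, whereas Angptl2, Angptl1, Angpt2, Angptl4 and LOC102552055 passed it. Of 4 tested genes in that list of fibrinogen-domain relatives none passed, with the matrix gene Tnxb at 16.0 ± 3.08 and 17.9 ± 5.23 FPKM.

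**Figure D4:**
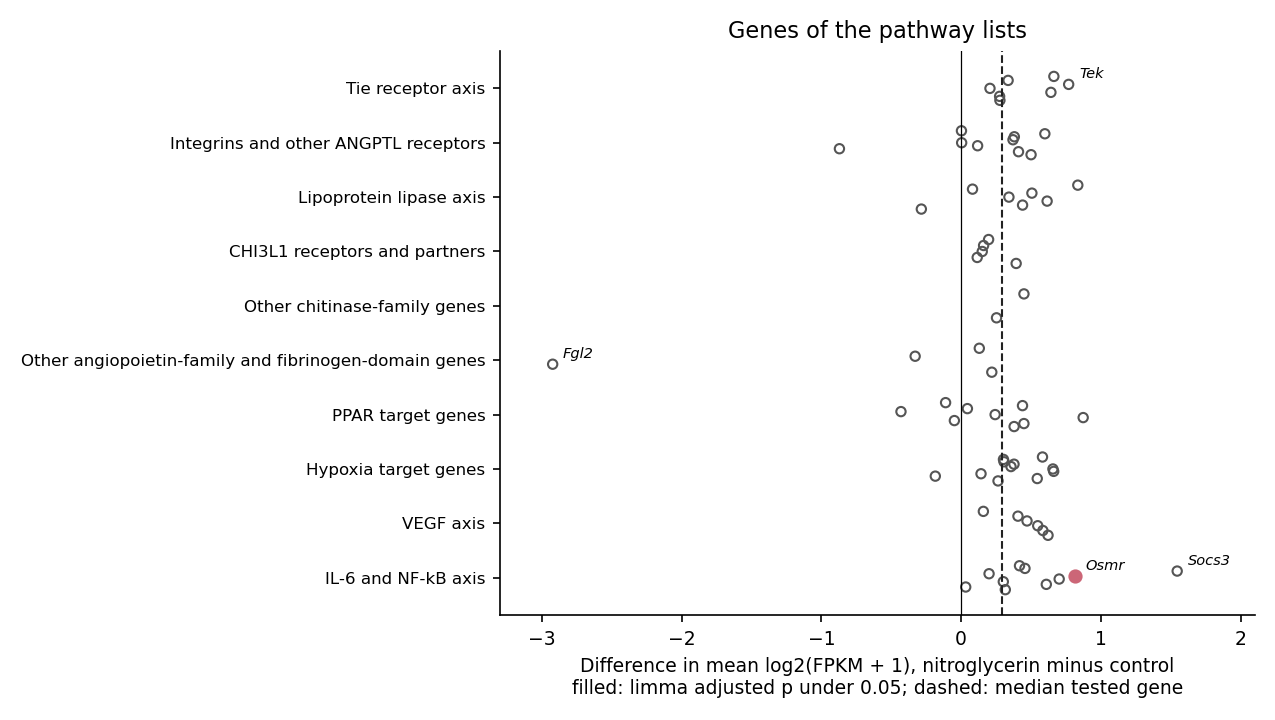
Difference in mean log2(FPKM + 1), nitroglycerin minus control (horizontal axis), for the 70 tested genes of 10 lists (vertical axis), 1 point per gene, filled where limma called it. Only Osmr is filled, the dashed line marks the median tested gene at 0.30, and Fgl2 lies far to the left at -2.92 without passing.

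Likeness between genes was measured as Pearson's r of the deviations from group means on log2(FPKM + 1), over 8 libraries and 11332 tested rows with a symbol. With so many candidates and 8 libraries high values arise easily, and they are given as a description. Chi3l1 was most like Rpp21 (r = 0.974), Nrm (0.971) and LOC100362432 (0.964). Those genes differed little between groups, with Rpp21 at 2.15 and 2.69 FPKM and Nrm at 5.82 and 6.21 FPKM, so they shared the ups and downs of Chi3l1 within groups but not its step between them. Angptl2 was most like Psd3 (0.976), Tmem216 (0.962) and Tbc1d22a (0.950). Angptl4 was most like Arap3, Kdr and Tbkbp1 (0.978, 0.978 and 0.977). Kdr, the main VEGF receptor gene, read 3.04 FPKM in nitroglycerin replicate 1 and 0.465 to 1.56 FPKM in the other libraries, and its r with Angptl4 was 0.9245 without that replicate. Among the genes described here the closest pair was Angptl2 and Angpt1 (r = 0.889), though Angpt1 was under the filter on low values. Chi3l1 and Angptl2 had r = 0.339.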

How the data were processed

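Gene values are FPKM, and the authors' deposited tables were used as they stand. Per the submitters' processing notes the tools were HISAT2 2.0, StringTie 1.3.0 and Bowtie 0.12.2 and the builds Rnor_6.0 and mm8, with no step named for any. A deposited lncRNA table gave FPKM and coverage (signal per base), used here only for depth, with coding-potential scores by the authors that were not used. None of its 4686 rows carried a symbol of these genes. FPKM is relative, so counting intervals were not computed.

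Members and lists were chosen with earlier results of these data known. Tests across genes used limma 3.58.1 (R 4.3.3, variance prior following mean level) on log2(FPKM + 1), which understates changes of low genes, over 12977 rows. Samples were grouped by their titles. Marker scores were compared by exact permutation over 70 splits. Genes named from a list were up to 4 that passed, or else the 2 of highest mean, and some named by this rule are not reported here. Python 3.11.15 did the rest. The steps were tested on simulated data. Alternatives covered pseudocount, filters, scaling, the replicate block, an adipocyte covariate, annotated rows and each library left out.

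Same-numbered libraries deviated together in 2 of 4 pairs (r over 0.1), so they were not treated as pairs.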

Additional observations from a re-analysis of the deposited data

Results flagged for a closer look

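Of 74 groups of 4 libraries examined, 4 (5.41%) had a library set apart from its group by Dixon's gap criterion for 4 values, which by its construction picks about 1 in 20 groups by chance. Nitroglycerin replicate 1 had an adipocyte marker score of 3.77 log2 against 1.37 to 1.66 in the other nitroglycerin libraries, and it is the library with the high Angptl4 value. It also had a Schwann cell marker score of 0.633 log2 against 0.250 to 0.268. Nitroglycerin replicate 4 had a mesothelial marker score of 0.0308 log2 against 0.0760 to 0.0844, all near 0. Control replicate 1 had 0.720 FPKM of Chid1 against 1.09 to 1.121 in the other controls. No value of the members was far enough from its group to be listed, the 8.80 FPKM of Angptl4 included.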

How the results depend on the processing

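All 7 described genes kept a log2 difference above 0 under all 16 alternatives, with Angpt1 as low as 0.04. Of all tested rows 86.6% were above 0 as deposited, and 6796 of 12977 after median-of-ratios rescaling. The count of all genes called by limma was 175 of 12977 rows. It was 7 at a 0.1 pseudocount, 26 of 27742 unfiltered, 384 of 3997 with a filter of 5 FPKM and 828 of 10104 annotated rows. After median-of-ratios rescaling it was 17 (4 higher and 13 lower, against 167 and 8), and after quantile normalization 15 (5 and 10). It was 4 with the adipocyte covariate and 5 to 284 with a library left out. With the replicate block it was 0 (4037 at an unadjusted p under 0.05), and no member or pathway gene was called with that block (5 and 25 at an unadjusted p). Control replicates 1 and 4 correlated best with their own number, and so did nitroglycerin replicates 1 and 4. Of the members, 1 was called with a pseudocount of 0.1 (Chi3l1), 1 with the stricter filter (Angptl2, since Chi3l1 was not tested), 0 after either rescaling and 0 with the covariate (2 at an unadjusted p by limma in each), and 0 to 2 with a library left out. Of the pathway genes, 3 were called with the stricter filter (Il6st, Ldha and Tek) and 5 over annotated rows (with Lmf1 and Osmr). The backgrounds there were 384 of 3997 and 828 of 10104 rows, so nothing is read from these counts. Called were 0 with a pseudocount of 0.1, no filter, either rescaling or the covariate (12 to 25 at an unadjusted p by limma). With a library left out 0 to 2 were called. No marker list passed. The pericyte difference (0.25) turned to -0.102 after median-of-ratios rescaling and -0.0191 after quantile normalization, and the mesothelial one (0.008) to -0.00792 and -0.000366. Without 1 library the smooth muscle difference ran from -0.148 to 0.0419 and the Schwann cell one from -0.00501 to 0.122. The causes were not tested. Depth limits Angpt1 most (1.76 to 8.33 bases of coverage).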

Other observations

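Fgl2, a fibrinogen-like gene of immune and endothelial cells, read 65.0, 170.3, 154 and 125 FPKM in controls and 0.641, 2.48, 104 and 112 FPKM with nitroglycerin. Replicates 1 and 2 of the nitroglycerin group were thus far below every other library, while replicates 3 and 4 were within the control range. The difference of -2.92 did not pass (limma adjusted p = 0.153). The integrin gene Itga5, a receptor chain for Angptl2 named after its values were seen, stood at 27.4 ± 12.4 and 14.4 ± 6.38 FPKM (SD, n = 4, limma adjusted p = 0.134), the lowest difference of its list at -0.87.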
